A study of Mus musculus with 6 samples.

Results

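The genes described are 40 genes of the cell cycle and of mitosis, of 54532 genes in the files, listed by name. Of these, 17 belong to the G1/S transition and S phase (S members) and 23 to G2 and mitosis (G2/M members). Their expression was compared in macrophages and leukemia cells of mice with MLL-AF9 acute myeloid leukemia (AML) and with iron overload, and the S members were set beside the G2/M members. RNA was sequenced in 6 libraries, 1 per condition, so no difference between conditions has a replicate of its own.

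All mice were C57BL/6 and, according to the methods of the study, 6 to 8 weeks old. WT mice carried no leukemia and received PBS, and WT/FE mice carried no leukemia and received iron dextran. MA9 mice were transplanted with leukemia cells and received PBS, and MA9/FE mice were transplanted and received iron dextran by intraperitoneal injection (0.2 mL at 25 mg/mL, every other day, 6 times, from 1 week after the transplant). The leukemia came from c-kit+ bone marrow (BM) cells infected with a retrovirus that carries the MLL-AF9 fusion and GFP, so leukemia cells are GFP+. Macrophages were sorted from all 4 kinds of mice as GFP- cells with low Gr-1 and positive F4/80, and leukemia cells of the 2 kinds of transplanted mice came from BM. On where the macrophages came from the sources differ, with spleen in the labels and BM in the methods of the study. The number of animals behind each library was not given in the sources used here.

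The authors deposited FPKM, fragments scaled to the length of the gene and to the depth of the library, so that levels can be compared between genes. Reads recovered from these values numbered 16085346 to 19518359 per library. All 40 genes had at least 91 reads in every library, and none was lost to the minimum of 10 reads. Whole reads came back for 38 of the 40 genes, the exceptions being Kif11 and Kif20a, whose reads are approximate. Markers did not describe a pure population in the macrophage libraries. The 17 macrophage markers summed to between 533 and 1186 FPKM there against 247 and 252 FPKM in leukemia cells, but 6 B cell markers summed to between 1108 and 1973 FPKM and 6 plasma cell markers to between 956 and 2448 FPKM in the same 4 libraries. In leukemia cells the 8 MLL-AF9 target genes summed to 176 and 178 FPKM, against 5.36 to 7.01 FPKM in macrophages, and the 8 myeloid progenitor markers to 4062 and 4683 FPKM. In bulk RNA, fewer dividing cells and less of these transcripts per cell cannot be told apart.

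Cells that divide copy their DNA in S phase and separate the copies in mitosis. In S phase the Mcm helicase, its loader and cofactors open the DNA, the Pcna clamp holds the polymerases, and ribonucleotide reductase and thymidylate synthase supply the building blocks. In mitosis cyclin B with Cdk1, the Polo and Aurora kinases, the spindle checkpoint, the kinesins and the anaphase promoting complex act in turn. Transcription of S phase genes is controlled by E2F factors through E2F sites. That of G2/M genes is controlled by B-Myb, FoxM1 and the DREAM and MuvB complexes through CHR elements. The promoters of G2/M genes often hold CCAAT boxes as well. Resident tissue macrophages divide little at rest, whereas myeloid progenitors and the leukemia cells of this model divide often.

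The sequences of this control were read from RefSeq (GRCm38.p6) to show how S and G2/M members differ in the promoter, since all later comparisons set these groups against each other. Of the 40 genes, 33 were found in the table of promoters, which holds 250 bases before and 50 bases after each transcription start. Mcm4, Gins2, Ccne2, Ccna2, Aurkb, Kif20a and Tpx2 were not in the table. The letters searched were TTTGAA for the CHR element, CCAAT for the CCAAT box and TTTNNCGC for an E2F-like site, each on both strands. An E2F-like match can overlap a match on the other strand, as it does in Mcm5 and Mcm6. Shown are the 160 bases before the start of 2 S members with an E2F-like site and of 3 G2/M members with a CHR element, in the direction of transcription and with every match in capitals.
Mcm5 (chr8:75109349-75109508, plus strand): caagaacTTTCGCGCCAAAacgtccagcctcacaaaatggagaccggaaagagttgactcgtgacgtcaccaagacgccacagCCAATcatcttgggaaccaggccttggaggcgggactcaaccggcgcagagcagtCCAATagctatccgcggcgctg
Mcm6 (chr1:128359706-128359865, minus strand): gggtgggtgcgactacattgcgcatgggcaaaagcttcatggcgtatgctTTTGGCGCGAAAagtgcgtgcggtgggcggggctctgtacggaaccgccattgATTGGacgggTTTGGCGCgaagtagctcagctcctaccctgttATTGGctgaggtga
Cdk1 (chr10:69352913-69353072, minus strand): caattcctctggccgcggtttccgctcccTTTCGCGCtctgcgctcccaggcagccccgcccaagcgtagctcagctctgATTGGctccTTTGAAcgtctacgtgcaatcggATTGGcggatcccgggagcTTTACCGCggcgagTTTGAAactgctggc
Cdc20 (chr4:118437344-118437503, minus strand): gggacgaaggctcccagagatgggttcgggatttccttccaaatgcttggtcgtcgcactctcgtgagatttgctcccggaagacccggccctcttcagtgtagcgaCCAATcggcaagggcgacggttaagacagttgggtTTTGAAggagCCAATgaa
Ube2c (chr2:164769769-164769928, plus strand): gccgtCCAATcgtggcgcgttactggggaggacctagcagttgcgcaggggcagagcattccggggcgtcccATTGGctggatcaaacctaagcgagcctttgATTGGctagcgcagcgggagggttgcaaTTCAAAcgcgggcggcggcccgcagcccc

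TTTGAA was in the window of 14 of 19 G2/M members and 2 of 14 S members (Mcm2 and Cdc45), and in 20.2% of all 27025 genes in the table. CCAAT was found in 17 of 19 G2/M members and 9 of 14 S members, against 41.1% of all genes. Both were in the same window in 14 of 19 G2/M members and 2 of 14 S members, against 7.97% of all genes. TTTNNCGC was in 6 of 14 S members (Mcm3, Mcm5, Mcm6, Mcm7, Tyms and Cdc6) and in 1 of 19 G2/M members (Cdk1), against 5.93% of all genes. Cdk1 held all 3 motifs. The leftmost printed base of the TTTGAA match lay 18 bases before the start in Cdc20 and 29 bases before it in Ube2c. In Ube2c the match is on the other strand and is printed as TTCAAA. In Cdk1 there were matches at 71 and at 15 bases. These are matches of letters, and binding of a factor was not measured.

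Of the 40 genes, 38 had 1 common order of levels, from WT macrophages over MA9 macrophages to leukemia cells. Each of the 40 was higher in both MA9 macrophage libraries than in both WT macrophage libraries. Each but Ccne1 and Cdc20 was higher in both leukemia libraries than in both MA9 macrophage libraries. How many of all genes separate in these ways, here and below, was not counted. Pair by pair, 49.6% of all genes rose from WT to MA9 macrophages and 50.3% from WT/FE to MA9/FE macrophages. From macrophages to leukemia cells, 51.1% rose in MA9 mice and 48.2% in MA9/FE mice. Reads of the 38 genes with whole reads made up 0.139% of all reads of WT macrophages (95% exact binomial interval 0.137% to 0.141%) and 0.132% of those of WT/FE macrophages. The share was 0.447% for MA9 macrophages and fell short of that, at 0.285%, for MA9/FE macrophages. Leukemia cells had 0.733% (MA9) and 0.745% (MA9/FE). Intervals here and below are 95% intervals, computed from reads, and cover counting error only, not the difference between animals.

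**Figure D1:**
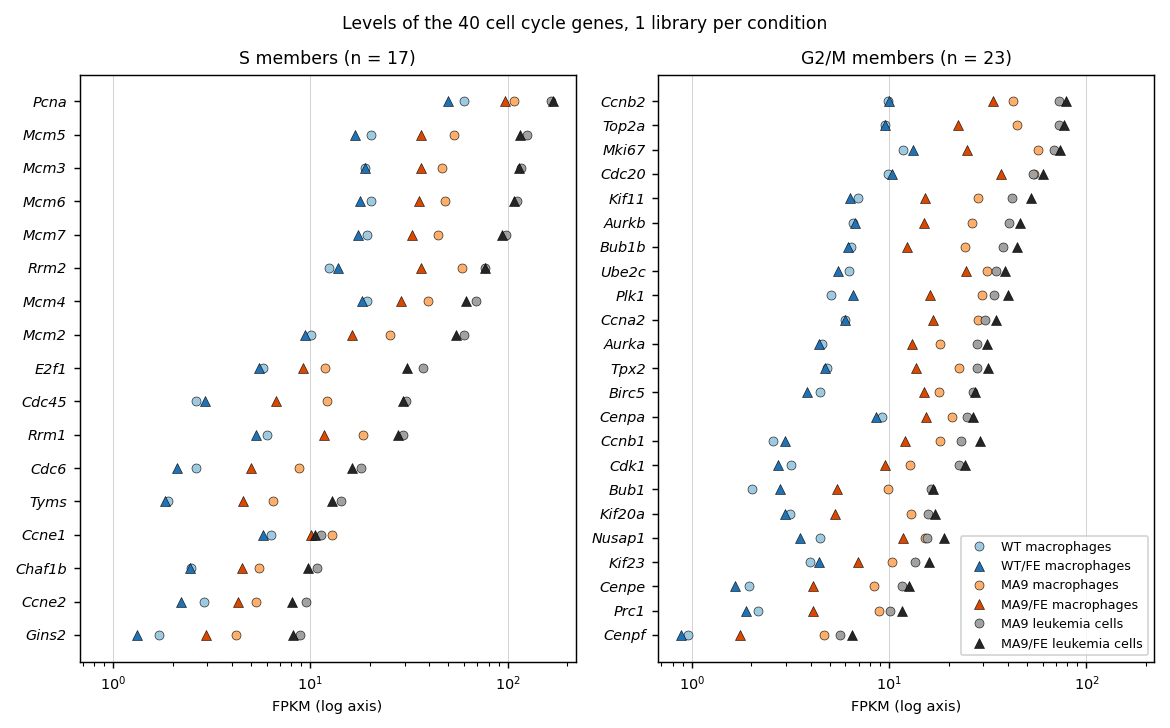
FPKM on a log axis for the 17 S members (left) and 23 G2/M members (right), with 1 point per library (circles without iron, triangles with iron), sorted by the level in MA9 leukemia cells. For each gene the blue WT and WT/FE points lie lowest and the orange MA9 and MA9/FE points lie above them, and among the G2/M members the black triangle of MA9/FE leukemia cells is the highest point for 23 of 23.

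Among the S members, the 6 subunits of the Mcm2-7 helicase, which unwinds DNA at the fork, moved in 1 order. Mcm5 stood at 20.3 (WT), 16.9 (WT/FE), 53.6 (MA9) and 36.5 FPKM (MA9/FE) for macrophages, then 126 (MA9) and 116 FPKM (MA9/FE) for leukemia cells. Values below follow this order of libraries. Mcm3 stood at 18.9 (WT), 18.8 (WT/FE), 46.7 (MA9) and 36.3 FPKM (MA9/FE) for macrophages, then 117 (MA9) and 114 FPKM (MA9/FE) for leukemia cells. Mcm2 was the lowest of the 6 in every library, at 10.1, 9.40, 25.3 and 16.2 FPKM for macrophages, then 60.0 and 55.0 FPKM for leukemia cells. None of the 6 overlapped between WT and MA9 macrophages or between MA9 macrophages and leukemia cells. Mcm4, Mcm6 and Mcm7 ranged from 17.4 to 20.3 FPKM in the libraries without leukemia, from 28.7 to 48.3 FPKM in MA9 and MA9/FE macrophages and from 61.5 to 112 FPKM in leukemia cells.

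The cofactors that turn the loaded helicase on were lower in level and also rose from WT macrophages over MA9 macrophages to leukemia cells. Cdc45 stood at 2.62, 2.92, 12.2 and 6.72 FPKM for macrophages, then 30.5 and 29.3 FPKM for leukemia cells. Gins2, a subunit of the GINS complex, was the least expressed S member in every library but MA9/FE leukemia cells, at 1.71, 1.32, 4.18 and 2.96 FPKM for macrophages, then 8.90 and 8.14 FPKM for leukemia cells. Cdc6, which loads the helicase at origins, stood at 2.64, 2.12, 8.74 and 4.99 FPKM for macrophages, then 18.0 and 16.3 FPKM for leukemia cells. In all of these the MA9 library was the higher of the 2 libraries of MA9 macrophages, and Cdc45 was the only one of the 3 that was not lower in WT/FE than in WT macrophages.

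Pcna, the clamp that holds polymerases on DNA, was the most expressed of the 40 genes in every library, at 60.3, 49.7, 108 and 97.3 FPKM for macrophages, then 166 and 169.8 FPKM for leukemia cells. It was the only S member that was not lower with iron in leukemia cells. Chaf1b, a subunit of the complex that deposits histones behind the fork, stood at 2.50, 2.44, 5.52 and 4.49 FPKM for macrophages, then 10.8 and 9.67 FPKM for leukemia cells. Rrm2, the regulatory subunit of ribonucleotide reductase, stood at 12.4, 13.9, 58.7 and 36.3 FPKM for macrophages, then 77.0 and 76.9 FPKM for leukemia cells. Its larger partner Rrm1 stood at 6.04, 5.33, 18.4 and 11.8 FPKM for macrophages, then 29.5 and 27.9 FPKM for leukemia cells, and the difference between WT and MA9 macrophages was smaller for it than for Rrm2. Tyms, which makes thymidylate, stood at 1.89, 1.84, 6.43 and 4.56 FPKM for macrophages, then 14.2 and 12.9 FPKM for leukemia cells.

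The G1/S regulators differed among themselves. E2f1, the transcription factor that drives S phase genes, stood at 5.75, 5.49, 11.8 and 9.13 FPKM for macrophages, then 37.1 and 30.9 FPKM for leukemia cells, with both leukemia libraries far above the macrophages. Ccne1, which encodes cyclin E1, stood at 6.31, 5.75, 12.9 and 10.1 FPKM for macrophages, then 11.3 and 10.5 FPKM for leukemia cells and was highest in MA9 macrophages, so that leukemia cells overlapped with MA9 macrophages. Ccne2, for cyclin E2, stood at 2.90, 2.21, 5.30 and 4.30 FPKM for macrophages, then 9.53 and 8.09 FPKM for leukemia cells without such an overlap.

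Among the G2/M members, the mitotic cyclins and their kinase separated WT from MA9 macrophages in every case. Ccnb1, for cyclin B1, stood at 2.56, 2.95, 18.2 and 12.0 FPKM for macrophages, then 23.2 and 28.8 FPKM for leukemia cells. Ccnb2, for cyclin B2, stood at 9.87, 9.95, 42.2 and 33.6 FPKM for macrophages, then 72.8 and 78.6 FPKM for leukemia cells. Cdk1, the kinase that both cyclins activate, stood at 3.17, 2.71, 12.7 and 9.50 FPKM for macrophages, then 22.6 and 24.1 FPKM for leukemia cells. Ccna2, for the cyclin A that acts from S phase to early mitosis, stood at 5.99, 5.99, 28.1 and 16.6 FPKM for macrophages, then 30.7 and 34.8 FPKM for leukemia cells. For Ccna2 the MA9 macrophages came close to the leukemia cells, whereas for Cdk1 and Ccnb2 they stayed well below them.

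The kinases and the checkpoint genes likewise rose from WT macrophages over MA9 macrophages to leukemia cells, with WT and WT/FE in either order. Plk1, the Polo-like kinase of mitotic entry and exit, stood at 5.06, 6.55, 29.6 and 16.1 FPKM for macrophages, then 33.9 and 39.8 FPKM for leukemia cells. Aurka, the Aurora kinase of the spindle poles, stood at 4.55, 4.42, 18.2 and 13.0 FPKM for macrophages, then 27.9 and 31.2 FPKM for leukemia cells. Aurkb, the Aurora kinase of the chromosomal passenger complex, stood at 6.56, 6.71, 26.2 and 15.1 FPKM for macrophages, then 40.3 and 45.8 FPKM for leukemia cells, and Birc5, the survivin subunit of that complex, stood at 4.47, 3.83, 17.9 and 14.9 FPKM for macrophages, then 26.5 and 27.3 FPKM for leukemia cells. Birc5 had the smallest difference between MA9 and MA9/FE macrophages of all G2/M members. The spindle checkpoint kinase Bub1 stood at 2.02, 2.80, 9.86 and 5.45 FPKM for macrophages, then 16.3 and 16.6 FPKM for leukemia cells, and its relative Bub1b at 6.38, 6.15, 24.2 and 12.3 FPKM for macrophages, then 37.9 and 44.3 FPKM for leukemia cells.

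Cdc20 and Ube2c, an activator and the ubiquitin-conjugating enzyme of the anaphase promoting complex, were among the members in which macrophages of leukemic mice came near to leukemia cells, as was Nusap1. Cdc20 stood at 9.85, 10.3, 53.9 and 37.0 FPKM for macrophages, then 53.9 and 59.9 FPKM for leukemia cells, and the MA9 macrophages overlapped with the MA9 leukemia cells. Ube2c stood at 6.27, 5.49, 31.2 and 24.5 FPKM for macrophages, then 35.0 and 38.6 FPKM for leukemia cells. Nusap1, which bundles spindle microtubules, stood at 4.47, 3.55, 15.1 and 11.7 FPKM for macrophages, then 15.5 and 18.9 FPKM for leukemia cells.

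Of the genes of chromosome structure, Mki67, the proliferation antigen that coats mitotic chromosomes, stood at 11.7, 13.3, 57.1 and 24.8 FPKM for macrophages, then 68.5 and 73.4 FPKM for leukemia cells. Top2a, which untangles sister DNA, stood at 9.50, 9.57, 44.6 and 22.4 FPKM for macrophages, then 72.2 and 76.7 FPKM for leukemia cells. In both, the level in MA9/FE macrophages lay nearer to that in WT than to that in MA9 macrophages. The centromere histone Cenpa stood at 9.15, 8.54, 20.8 and 15.4 FPKM for macrophages, then 24.8 and 26.5 FPKM for leukemia cells. The kinetochore motor Cenpe stood at 1.955, 1.66, 8.32 and 4.09 FPKM for macrophages, then 11.5 and 12.6 FPKM for leukemia cells, and Cenpf, the kinetochore protein with the lowest level of all 40 genes in every library but MA9 macrophages, stood at 0.953, 0.879, 4.67 and 1.76 FPKM for macrophages, then 5.64 and 6.50 FPKM for leukemia cells. Of the spindle and cytokinesis genes, the motors Kif11, Kif20a and Kif23, the microtubule bundler Prc1 and the Aurora A activator Tpx2 ranged from 1.88 to 6.91 FPKM in WT and WT/FE, from 4.10 to 28.3 FPKM in MA9 and MA9/FE macrophages and from 10.1 to 52.1 FPKM in leukemia cells. With iron, all 5 were lower in macrophages of leukemic mice and higher in leukemia cells.

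The first comparison asked how macrophages of leukemic mice differed from those of mice without leukemia. Without iron, all 40 genes were at a higher level in MA9 than in WT macrophages, and G2/M members by more than S members. The median log2 fold change of (FPKM + 1) was 1.86 over 23 G2/M members and 1.22 over 17 S members. A fold of at least 2 on this scale was passed by 23 of 23 G2/M members and 11 of 17 S members, while 3.79% of all genes passed it in this direction. Pcna, Gins2, Ccne1, Ccne2, E2f1 and Chaf1b, with log2 fold changes from 0.70 to 0.94, lay below it. The closest S members on either side of the threshold were Mcm4 (1.01) and Gins2 (0.94). The widest difference was that of Ccnb1, whose FPKM was 7.08-fold (interval 6.12 to 8.23) higher, followed by Plk1 at 5.85-fold (interval 5.05 to 6.79) and Cdc20 at 5.48-fold (interval 4.89 to 6.16). Among S members it was that of Rrm2, at 4.72-fold (interval 4.34 to 5.15), and Cdc45, at 4.66-fold (interval 3.95 to 5.52).

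With iron in both, MA9/FE exceeded WT/FE macrophages for 40 of 40 genes. The log2 fold change was smaller than that without iron for 38 of the 40 (all but Ccne2 and Pcna). That count draws on the same macrophage libraries as the iron comparisons below and is not independent of them. The median log2 fold change was 1.15 over G2/M members and 0.92 over S members. The fold of 2 was passed by 14 of 23 G2/M members and 3 of 17 S members (Mcm5, Rrm1 and Rrm2), against 2.8% of all genes. Ube2c was 4.45-fold (interval 3.86 to 5.15) higher, Ccnb1 4.07-fold (interval 3.49 to 4.76) and Birc5 3.90-fold (interval 3.36 to 4.55), whereas Mki67 was 1.87-fold (interval 1.77 to 1.97) higher, Cenpf 1.997-fold (interval 1.70 to 2.35) and Kif23 1.56-fold (interval 1.40 to 1.73). Spearman's rho between exon length and log2 fold change was -0.67 over the 23 G2/M members, 0.15 over the 17 S members and -0.27 over all 16571 genes, as a description across genes of 1 pair of libraries.

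**Figure D2:**
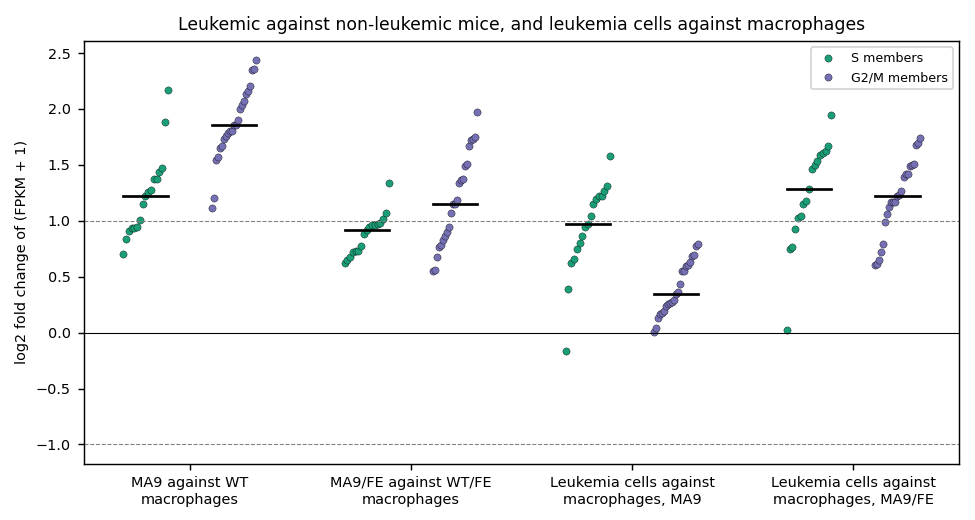
Log2 fold change of (FPKM + 1) for each S member (green) and G2/M member (purple) in 4 comparisons, with 1 point per gene, a black bar at the median and dashed lines at a fold of 2. G2/M members lie above S members for MA9 against WT macrophages (medians 1.86 and 1.22), below them for MA9 leukemia cells against MA9 macrophages (0.35 and 0.97) and beside them for the same comparison in MA9/FE mice (1.22 and 1.29).

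The fit across all genes and all 6 libraries (limma, an additive model of cell class and iron) treats the iron difference as common to the classes. Its error is therefore how that difference varies between classes, with 2 residual degrees of freedom, and not the spread between animals. In this fit 17 of the 40 genes stood higher in MA9 than in WT macrophages at a Benjamini-Hochberg adjusted p at or under 0.05, against 1.01% of 17152 genes. They comprised 10 G2/M members (Ccna2, Ccnb1, Ccnb2, Cdk1, Cdc20, Ube2c, Birc5, Aurka, Tpx2 and Nusap1) and 7 S members (Mcm3, Mcm5, Mcm6, Mcm7, Rrm1, Rrm2 and Tyms). Birc5 was higher by 1.77 on the log2 scale (SE 0.12, limma adjusted p = 0.0189) and Ube2c by 2.08 (SE 0.14, limma adjusted p = 0.0189). Mki67, higher by 1.54 (SE 0.34, limma adjusted p = 0.10), and Cenpf, higher by 1.06 (SE 0.31, limma adjusted p = 0.16), did not pass, and both differed strongly between MA9 and MA9/FE macrophages. The count rests on single libraries. It was 0 without the WT library, 4 without WT/FE macrophages and 4 without either library of leukemia cells, and 29 without MA9 and 37 without MA9/FE macrophages.

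Markers of other cells moved with this difference. The 8 neutrophil markers were higher in both MA9 than in both WT macrophage libraries for 8 of 8 genes, with a summed level of 1786 and 904 FPKM in MA9 and MA9/FE against 3.04 and 1.88 FPKM in WT and WT/FE, where Ltf, Camp and Mmp8 were at 0 in 1 library or both. Myeloid progenitor markers were higher for 7 of 8, at 199 and 111 FPKM against 32.9 and 30.1 FPKM, with Kit as the exception and none at 0. Erythroid markers were higher for 11 of 13, at 310 and 527 FPKM against 102 and 214 FPKM, with none at 0. Klf1, the transcription factor of the erythroid lineage, stood at 5.06 (WT), 3.27 (WT/FE), 24.9 (MA9) and 15.0 FPKM (MA9/FE) for macrophages. Plasma cell markers were higher for 6 of 6, at 1959 and 2448 FPKM against 995 and 956 FPKM, and B cell markers for 0 of 6. The part of these cells in the cell cycle difference was not tested. The rise from WT to MA9 macrophages was also set against the level in the GFP+ leukemia cells. The lists used are not specific to leukemia cells. Kit, a myeloid progenitor marker, stood at 26.8 FPKM in WT macrophages and 11.3 FPKM in MA9 leukemia cells. Neutrophil markers summed to 2804 FPKM in MA9 leukemia cells. The rise of the MLL-AF9 targets from WT to MA9 macrophages had a median of 1.02% of the level in MA9 leukemia cells over the 7 genes at 1 FPKM or more there, and that of the myeloid progenitor markers one of 3.66% (8 genes). With iron in both these medians were 0.491% and 2.29%. The same median was 27.9% for S members and 55.2% for G2/M members without iron, and 17.6% and 24.1% with iron. Neutrophil markers lay near the G2/M members without iron and above them with iron, at 57.8% and 39.1% (8 genes each), and erythroid markers at 55.4% (7 genes) and 228% (8 genes). Without iron, single genes ranged from -6.21% to 2.19% for MLL-AF9 targets and from -21.5% to 11.5% for myeloid progenitor markers. They ranged from 16.3% to 60.1% for S members and from 42.3% to 81.9% for G2/M members. The part of leukemia, myeloid progenitor, neutrophil and erythroid cells in the members' values was not tested. Hoxa10, an MLL-AF9 target, was at 0 in WT and WT/FE and at 0.234 and 0.190 FPKM in MA9 and MA9/FE macrophages.

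The next comparison asked what iron dextran did in macrophages of leukemic mice. Each of the 40 was below its MA9 level in the MA9/FE macrophages. The median log2 fold change was -0.68 over G2/M members and -0.38 over S members, against 0.02 over all genes. The counting interval of the FPKM ratio lay below 1 for 40 of 40 genes, as it did for 28.5% of all genes. A fold of 2 was passed by Mki67, Kif20a and Cenpf, or 3 of 40, where 1.25% of all genes passed it in this direction. Mki67 was 2.30-fold (interval 2.22 to 2.39) lower, Kif20a 2.42-fold (interval 2.14 to 2.74) and Cenpf 2.66-fold (interval 2.38 to 2.97). Top2a (-0.92 on the log2 scale) and Prc1 (-0.91) were the closest members that did not pass, and Cenpf (-1.01) was the closest that did.

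The size of the difference varied with the role of the gene, with transcript length (below) not taken out. Medians on the log2 scale were -1.02 for Mki67 and Top2a, -0.84 for the 3 centromere and kinetochore genes, -0.80 for the spindle checkpoint genes Bub1 and Bub1b and -0.73 for the 6 spindle and cytokinesis genes. Cdk1 and the 3 mitotic cyclins had a median of -0.43, and Cdc20 and Ube2c one of -0.39, near the -0.40 of the 6 Mcm genes. Cdc45 (-0.73), Cdc6 (-0.66) and Rrm2 (-0.64) had the widest differences among S members. Pcna had the smallest of all 40, being 1.11-fold (interval 1.06 to 1.16) lower.

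This comparison also varied with transcript length, which differed between the roles above. Summed exons were 10061 bases for Mki67 and 9013 for Top2a, against 1868 for Cdc20 and 2600 for Ube2c. Role and length were not separated in the medians by role. Spearman's rho between exon length and log2 fold change was -0.48 over the 40 genes, -0.60 within G2/M and -0.38 within S members, and -0.28 over all 16512 genes. The 20 members shorter than the median of 4246 bases had a median log2 fold change of -0.38, and the 20 longer ones of -0.66. After the trend with exon length over all genes was taken out, all 40 stayed below 0, with medians of -0.66 over G2/M and -0.33 over S members, and 1 gene passed the fold of 2. Neutrophil markers were lower in MA9/FE for 8 of 8 genes (904 against 1786 FPKM in sum), myeloid progenitor markers for 8 of 8 (111 against 199 FPKM) and erythroid markers for 7 of 13. The erythroid sum was nevertheless higher in MA9/FE, at 527 against 310 FPKM. Among the erythroid markers that were higher were the hemoglobin genes Hba-a1 (210 against 103 FPKM) and Hbb-bs (181 against 83.4 FPKM). Macrophage markers were higher for 17 of 17 genes (1186 against 533 FPKM) and B cell markers for 6 of 6 (1958 against 1108 FPKM). The part of transcript length and of these cells in the cell cycle difference was not tested.

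**Figure D3:**
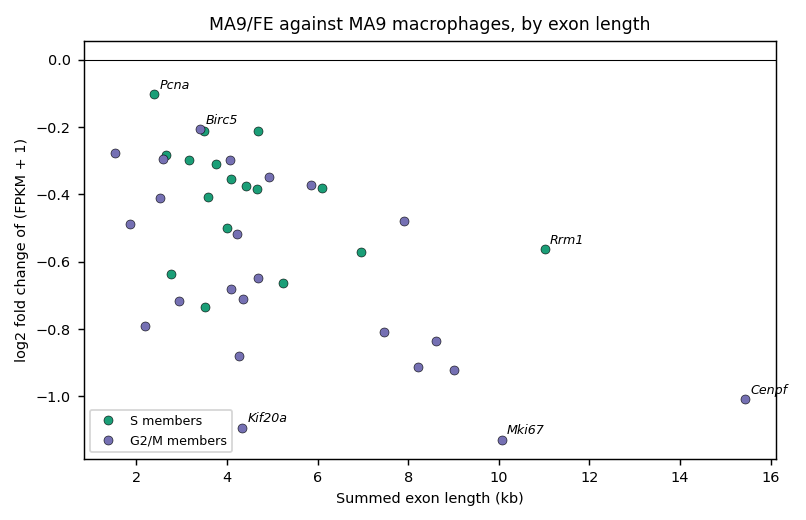
Log2 fold change of (FPKM + 1) in MA9/FE against MA9 macrophages plotted against summed exon length in kilobases, with 1 point per gene (S members green, G2/M members purple). All 40 points lie below 0, those of the long genes Mki67 and Cenpf among the lowest, and the median is -0.38 for the 20 shorter and -0.66 for the 20 longer genes.

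In macrophages without leukemia the difference with iron was small. No member passed a fold of 2, as 1.29% of all genes did in either direction. The median log2 fold change was -0.11 over S members, of which 15 of 17 were lower in WT/FE, and -0.03 over G2/M members, of which 13 of 23 were lower. Mcm3, Top2a and Ccna2 lay so close to 0 that their sign changed with the scaling or with the length trend. The counting interval lay below 1 for 7 S members and 1 G2/M member (Nusap1), against 18.1% of all genes. Pcna was 1.21-fold (interval 1.15 to 1.29) lower and Mcm5 1.20-fold (interval 1.11 to 1.30) lower. Above 1 lay the intervals of 3 G2/M members, Bub1 (1.38-fold (interval 1.13 to 1.71) higher), Plk1 (1.30-fold (interval 1.07 to 1.56)) and Mki67 (1.14-fold (interval 1.07 to 1.20)), against 16.2% of all genes. Macrophage markers were higher in WT/FE for 17 of 17 genes in this pair as well, with a sum of 934 against 558 FPKM.

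In leukemia cells the S and G2/M members lay on opposite sides. With iron, 23 of 23 G2/M members were higher, and 16 of 17 S members were lower, with Pcna as the exception. The differences were small, with a median log2 fold change of 0.15 over G2/M and -0.12 over S members, and none of the 40 passed a fold of 2, as 0.863% of all genes did. The counting interval lay above 1 for 21 of 23 G2/M members, against 15.6% of all genes, and below 1 for 11 of 17 S members, against 14.3% of all genes. Kif11 was 1.25-fold (interval 1.20 to 1.29) higher, Ccnb1 1.24-fold (interval 1.16 to 1.32), Nusap1 1.22-fold (interval 1.13 to 1.33) and Plk1 1.18-fold (interval 1.09 to 1.27). E2f1 was 1.20-fold (interval 1.12 to 1.28) lower, Ccne2 1.18-fold (interval 1.04 to 1.33) and Mcm4 1.13-fold (interval 1.08 to 1.18). The log2 ranges of the groups met only where Bub1 (0.01), the lowest G2/M member, lay below Pcna (0.03), the highest S member. These directions were the same under each of the 3 other scalings, the other pseudocount and without the length trend, and rho with exon length was 0.03. Whether 2 libraries from mice of the same condition would differ as much was not measured. In this pair erythroid markers were lower with iron for 12 of 13 genes (167 against 433 FPKM in sum), neutrophil markers for 7 of 8 (2139 against 2804 FPKM) and MLL-AF9 targets for 5 of 8 (178 against 176 FPKM), and their part in the difference was not tested.

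**Figure D4:**
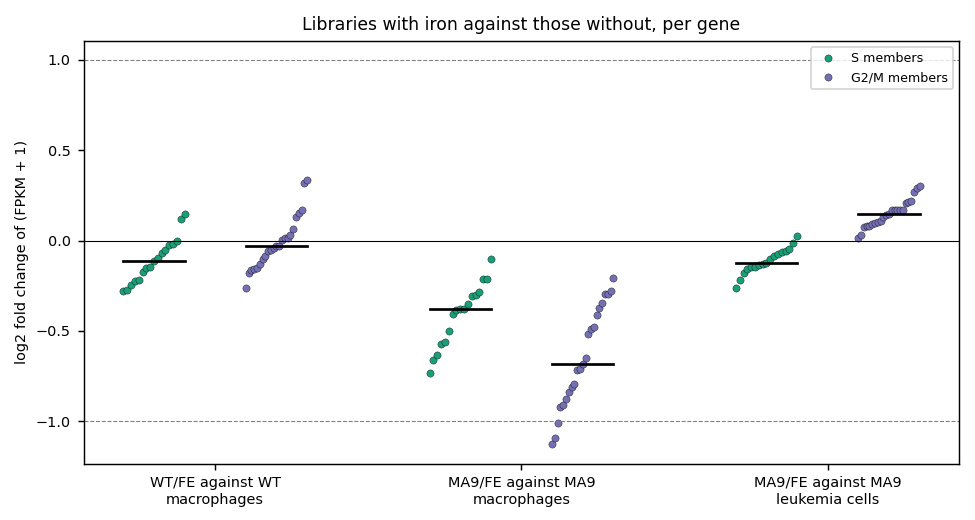
Log2 fold change of (FPKM + 1) with iron against without iron for each S member (green) and G2/M member (purple) in WT macrophages, MA9 macrophages and leukemia cells, with 1 point per gene, a black bar at the median and dashed lines at a fold of 2. All points of MA9 macrophages lie below 0 (medians -0.38 and -0.68), while in leukemia cells the G2/M members lie above 0 (median 0.15) and all S members but Pcna below it (median -0.12).

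Over the 3 classes together, the additive limma fit called none of the 40 genes for iron at an adjusted p at or under 0.05, and no gene at all (0.0% of 17152). At an unadjusted p under 0.05 it counted 2 S members, 0 G2/M members and 618 genes.

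The balance of G2/M to S reads summarises these pairs by library. There were 0.700 reads on the 21 G2/M members with whole reads for each read on the 17 S members in WT macrophages and 0.789 in WT/FE. The ratio was 1.22 for MA9 macrophages and 0.958 for MA9/FE macrophages. For leukemia cells it was 0.809 (MA9) and 0.940 (MA9/FE). This ratio of summed reads was highest in MA9 macrophages. Long genes weigh more in it, so 1 is not a reference value. In MA9 macrophages Mki67 gave 9759 and Top2a 6836 of the 41821 G2/M reads. In MA9/FE macrophages they gave 4010 and 3245 of 22407. The ratio without these genes was not computed. With iron the ratio of summed reads was higher in WT macrophages and in leukemia cells and lower in MA9 macrophages. The ratio of the median FPKM of G2/M members to that of S members gave another order. For macrophages it was 0.765 (WT), 0.819 (WT/FE), 1.13 (MA9) and 1.16 (MA9/FE), and for leukemia cells 0.751 (MA9) and 1.01 (MA9/FE). By medians it was highest in MA9/FE macrophages, and not lower with iron in MA9 macrophages. S members took 0.406% of reads in MA9 leukemia cells (interval 0.403% to 0.408%) and 0.384% in MA9/FE (0.381% to 0.387%), and G2/M members 0.328% (0.325% to 0.331%) and 0.361% (0.358% to 0.364%).

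The last comparison set leukemia cells beside macrophages of mice of the same condition, which share neither cell type nor, by the labels, the organ. In MA9 mice the S members were further apart than the G2/M members, with a median log2 fold change of 0.97 against 0.35. A fold of 2 was passed by 8 of 17 S members (Mcm2, Mcm3, Mcm5, Mcm6, Mcm7, Tyms, Cdc45 and E2f1) and 0 of 23 G2/M members, against 7.73% of all genes. E2f1 was 3.14-fold (interval 2.87 to 3.44) higher in leukemia cells and Mcm3 2.50-fold (interval 2.40 to 2.61). The interval of Cdc20 included 1, at 0.999-fold (interval 0.934 to 1.07), and its sign changed with the scaling. Nusap1 (1.02-fold (interval 0.941 to 1.12)) also included 1, and Ccne1 was 1.14-fold (interval 1.01 to 1.28) lower. In MA9/FE mice the medians were 1.29 over S and 1.22 over G2/M members, and 13 of 17 and 17 of 23 passed the fold of 2, against 9.57% of all genes. Bub1b was 3.60-fold (interval 3.34 to 3.89) higher there, Cenpf 3.70-fold (interval 3.33 to 4.12) and Cdc45 4.36-fold (interval 3.90 to 4.89). This comparison and that of MA9 with WT macrophages use the same MA9 library, which was the highest macrophage library for all 40 genes, so their values are not independent.

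In the additive limma fit, leukemia cells were above MA9 macrophages for 16 of 17 S members and 14 of 23 G2/M members, against 20.7% of all genes. E2f1 differed by 1.61 on the log2 scale (SE 0.12, limma adjusted p = 0.000582) and Mcm3 by 1.46 (SE 0.13, limma adjusted p = 0.000889). The S member that did not pass was Ccne1, at -0.06 (SE 0.12, limma adjusted p = 0.70), and Cdc20 (0.33, SE 0.18, limma adjusted p = 0.19) and Nusap1 (0.33, SE 0.17, limma adjusted p = 0.17) were among the G2/M members that did not. The count of 30 was 19 without the MA9 and 11 without the MA9/FE library of leukemia cells.

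Other genes of the same pathways stood as follows. Their lists were grouped by function but chosen with earlier results of these data known. Of 30 other S phase genes, 30 lay higher in MA9 than in WT macrophages, 14 of them by a fold of 2 (median log2 fold change 0.91). Of 36 other G2/M genes 35 were higher, 32 of them by a fold of 2 (median 1.61). The fold of 2 was passed in this direction by 3.79% of all genes. The S phase genes with the widest differences were E2f8, an E2F repressor (2.77, 2.49, 11.6, 4.35, 31.7 and 27.1 FPKM in the order of libraries used above), Clspn, a checkpoint mediator at the fork, and Uhrf1, which maintains DNA methylation. Those of the G2/M list were the kinesin Kif18b (1.74, 2.33, 11.8, 5.87, 17.2 and 17.2 FPKM) and Hmmr, a spindle protein (1.64, 1.86, 10.1, 4.98, 10.7 and 13.3 FPKM). In the additive limma fit 3 of 30 and 12 of 36 passed, against 1.01% of all genes. Pttg1, the securin that holds back separase, was the 1 gene of the G2/M list that was lower, at 12.2, 10.2, 8.91, 14.2, 5.81 and 5.35 FPKM.

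With iron in both, 2 of 30 S phase and 16 of 36 G2/M genes of these lists passed a fold of 2 in MA9/FE against WT/FE macrophages (medians 0.58 and 0.97), against 2.8% of all genes. In MA9/FE against MA9 macrophages 28 of 30 and 35 of 36 were lower (medians -0.35 and -0.49). The fold of 2 was passed by 1 of 30 (E2f8) and 1 of 36 (Foxm1), against 1.25% of all genes in this direction. Foxm1, a transcription factor of G2/M genes, stood at 4.11, 3.56, 14.5, 5.91, 19.8 and 21.1 FPKM. In leukemia cells, 22 of 30 S phase genes were lower with iron (median -0.05) and 30 of 36 G2/M genes were higher (median 0.11). None was past the fold of 2, as 0.863% of all genes were. In leukemia cells against MA9 macrophages, 8 of 30 and 1 of 36 were higher by a fold of 2 without iron, against 7.73% of all genes, and 16 of 30 and 23 of 36 with iron, against 9.57%. Cdc25b, a phosphatase that activates Cdk1, was lower in leukemia cells, at 16.7, 15.9, 25.6, 19.4, 11.2 and 12.8 FPKM.

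The genes that start or stop the cycle in G1 were set beside these lists. Of 8 G1 drivers, none passed a fold of 2 in MA9 against WT or in MA9/FE against WT/FE macrophages. Of all genes, 3.79% and 2.8% were higher by that fold. In MA9/FE against MA9 macrophages 7 of 8 lay lower. Ccnd1, for cyclin D1, was highest in WT macrophages, at 60.0, 49.2, 45.6, 28.5, 9.65 and 11.0 FPKM, whereas Cdk6, its partner kinase, was highest in leukemia cells, at 4.69, 4.47, 9.48, 4.62, 61.3 and 72.2 FPKM. Of 13 brakes, genes that inhibit the cyclin-dependent kinases or restrain entry into the cycle, 1 passed a fold of 2 in MA9 against WT macrophages. This was Cdkn2c, an inhibitor of Cdk4 and Cdk6, at 6.56, 7.53, 17.4, 14.0, 34.2 and 35.0 FPKM. In lists this short, such counts cannot be told from the 3.79% of all genes. In MA9/FE against MA9 macrophages 8 of 13 were higher and 5 lower. None was past a fold of 2, by which 1.25% of all genes were lower. Cdkn1a, the inhibitor induced by p53, stood at 4.48, 2.70, 6.49, 4.06, 28.9 and 27.7 FPKM and was lower with iron in both kinds of macrophages. Cdkn1b, an inhibitor of cyclin E with Cdk2, stood at 42.2, 44.4, 34.7, 40.4, 21.2 and 23.9 FPKM. Cdkn2d stood at 15.9, 19.6, 20.1, 27.8, 40.2 and 46.0 FPKM and Gadd45a, a stress response gene, at 8.02, 8.47, 10.1, 13.6, 12.8 and 13.8 FPKM, and both were higher with iron in all 3 classes. Cdkn1c, another inhibitor of cyclin-dependent kinases, was near the lower limit, at 0.101, 0.146, 0.375, 0.427, 1.49 and 0.632 FPKM.

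Of the antiproliferative genes Btg1 and Btg2, Btg1 stood at 221, 209.8, 166, 206, 31.7 and 37.6 FPKM and Btg2 at 171, 169, 181, 196, 23.6 and 33.1 FPKM, so that both were lower in leukemia cells than in every macrophage library. The pocket proteins that hold E2F factors in check, Rb1 and its relatives, divided. Rb1 stood at 18.4, 20.1, 17.9, 16.1, 10.3 and 11.0 FPKM and Rbl1 at 10.1, 9.64, 15.7, 11.0, 23.8 and 22.8 FPKM, the former lower and the latter higher in leukemia cells than in MA9 macrophages. Rbl2 stood at 9.59, 11.0, 9.21, 8.36, 10.2 and 11.2 FPKM, Ccng1 at 25.7, 22.5, 24.2, 25.1, 26.2 and 25.1 FPKM and Ccng2 at 15.9, 15.4, 14.1, 15.1, 13.3 and 13.1 FPKM, within a range narrower than a fold of 2. In the additive limma fit 4 brakes were higher (Cdkn1a, Cdkn2c, Cdkn2d and Rbl1) and 4 lower (Btg1, Btg2, Cdkn1b and Rb1) in leukemia cells than in MA9 macrophages, against 20.7% of all genes higher and 22.7% lower. Between MA9 and WT macrophages none passed, and 5 of 13 had an unadjusted p under 0.05, as did 20.4% of all genes.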

How the data were processed

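Sorted macrophages (4 libraries) and leukemia cells (2 libraries) were sequenced, and the authors deposited FPKM for 54532 Ensembl genes per library. The submitters' processing notes name mm10, Bowtie2 2.2.5 and RSEM without a role. FPKM times the exon length of GENCODE M21 (GRCm38) gave whole reads within 0.05 for 96.8% to 97.0% of values, and thereby the depth of each library. Groups were taken from the sample labels.

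For each pair of libraries, log2(FPKM + 1) was compared after TMM scaling, for genes with at least 10 reads in 1 of the pair. A fold of at least 2 was counted, without a test, since each condition has 1 library. FPKM ratios and counting intervals (exact binomial, 95%) use unscaled values. An additive model (cell class and iron) was fitted with limma 3.58.1 (R 4.3.3) to all 17152 genes with at least 10 reads in 2 libraries. Exon length trends, other scalings, pseudocounts and read minimums and left-out libraries were the alternatives. Tested on simulated data, the limma step for leukemia cells against MA9 macrophages (17152 genes) recovered 90.5% of 200 genes changed by 2 on the log2 scale, with 25 other genes called. The fold of 2 for MA9 leukemia cells against MA9 macrophages (16438 genes) recovered 73.5%, with 16 other genes called. The simulated reads held no iron difference, so the error of the real fit was not part of this check. Promoters are RefSeq sequences (GRCm38.p6).

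The 40 genes and all lists were chosen with earlier results of these data known. All 40 genes could be named, as could every brake and, of the wider S phase and G2/M lists, the 5 genes with the widest difference in each direction among those with at least 100 reads. Ccnd1, Cdk6 and the markers named singly were chosen after their values were seen.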

Additional observations from a re-analysis of the deposited data

Results flagged for a closer look

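The direction of the iron difference of the G2/M members was not the same in all 3 classes of cells. Their median log2 fold change with iron was 0.15 in leukemia cells, where 23 of 23 were higher, -0.68 in MA9 macrophages, where 23 of 23 were lower, and -0.03 in WT macrophages, where 13 of 23 were lower. The median in leukemia cells exceeded that in MA9 macrophages by 0.83 and that in WT macrophages by 0.18. Each median rests on 1 library with and 1 without iron, and the difference between classes was not tested.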

How the results depend on the processing

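Of the alternatives to the counts and medians of the members, 148 kept the direction and stayed within 1.5 times the count or within the counting error of 1 typical member of the median, 3 moved, 2 were stronger and 10 weaker. With a pseudocount of 0.1, the median of G2/M members in MA9 against WT macrophages was 2.05, and that of S members in leukemia cells against macrophages was 1.08 in MA9 and 1.44 in MA9/FE mice. The 17 members past the fold of 2 in MA9/FE against WT/FE macrophages became 23 with that pseudocount and 23 with the exon length trend removed. With that trend removed, 1 member and not 3 passed the fold of 2 in MA9/FE against MA9 macrophages. In the additive fit, the 17 members called in MA9 against WT macrophages became 24 with no iron term, 0 with no minimum of reads and 4 with only the 4 macrophage libraries, and ranged from 0 (without WT) to 37 (without MA9/FE macrophages) when a library was left out. The 30 called in leukemia cells against MA9 macrophages became 19 with no minimum of reads and ranged from 11 (without MA9/FE leukemia cells) to 38 (without MA9 macrophages). Fewer samples and residual degrees of freedom are part of these alternatives; beyond that the cause was not tested. The lone sample of a class that remains is assumed to vary like the others. A pseudocount of 0.1 raised the number of all genes past the fold of 2, for example from 216 to 788 in WT/FE against WT macrophages. No scaling moved the median of all genes by over 0.1. No paired analysis was possible because each condition has 1 library.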
